A study of Mus musculus with 4 samples.

Results

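The MYC and MAX network is a small family of transcription factors that meet at 1 shared partner. The 9 genes described here were taken by name: the activators Myc and Mycn, the hub Max, and the antagonists Mxd1, Mxi1, Mxd3, Mxd4, Mnt and Mga. All 9 were found among the 55487 Ensembl gene IDs of the count table, and all 9 passed the filter on low counts that left 19194 genes to test. They were measured by RNA sequencing in group 2 innate lymphoid cells (ILC2s), lymphocytes without antigen receptors that were sorted from mouse colon and cultured. The culture contained the alarmins IL-25 and IL-33 together with the growth cytokines IL-2 and IL-7. The 2 control libraries and the 2 libraries given FK866 for 16 hours shared those cytokines. FK866 is a small molecule that inhibits NAMPT, the enzyme that recycles nicotinamide into NAD+. The sources used here do not give mouse strain, age and genotype, the dose of FK866 or the content of the control medium, nor whether replicates came from separate cultures or animals. The p-values thus rest on the spread among 4 libraries, part of which may be technical.

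MYC and MYCN bind DNA only as dimers with MAX. Such dimers sit on the E-box CACGTG and recruit acetyltransferases and elongation factors, and in lymphocytes MYC rises with cytokine or antigen stimulation and drives growth, ribosome production and nucleotide synthesis. The MXD proteins (MXI1 is also called MXD2) and MNT compete for MAX, bind the same E-box and bring the SIN3 corepressor with its histone deacetylases. MGA, the largest member, carries a T-box as well as the MAX-binding domain and belongs to a Polycomb complex, PRC1.6. MXD1 and MXI1 are known for their association with exit from the cell cycle and with differentiation.

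The stretches upstream of Mxd1 and Mxi1 are shown because these were the members called higher in FK866. They are the 250 bases before the RefSeq start in build GRCm38.p6, read 5′ to 3′ on the strand of the gene, at chr6:86669160-86669409 (minus strand) for Mxd1 and chr19:53310256-53310505 (plus strand) for Mxi1, the latter at the first of its 3 listed starts.
Mxd1: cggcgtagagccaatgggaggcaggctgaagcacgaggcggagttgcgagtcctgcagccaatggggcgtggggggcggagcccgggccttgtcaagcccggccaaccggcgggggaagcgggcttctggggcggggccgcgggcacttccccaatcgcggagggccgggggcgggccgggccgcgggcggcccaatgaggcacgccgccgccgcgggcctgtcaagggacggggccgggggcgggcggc
Mxi1: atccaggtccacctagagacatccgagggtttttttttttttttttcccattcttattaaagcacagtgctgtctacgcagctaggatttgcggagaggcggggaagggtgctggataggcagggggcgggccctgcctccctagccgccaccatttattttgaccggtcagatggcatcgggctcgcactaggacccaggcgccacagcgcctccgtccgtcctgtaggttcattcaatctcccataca
The Mxd1 stretch is 78.4% G and C with 32 CpG dinucleotides, and that of Mxi1 is 55.2% G and C with 13. The medians over 32851 RefSeq promoters are 52.4% and 6.

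Letters were searched on both strands in windows from 250 bases before to 50 after each RefSeq start. Of the 9 members, 8 had 10 such windows in all, and Myc had no entry. The E-box CACGTG stood in 3 of the 10 windows, 1 each for Max, Mnt and Mxd4, against 7.15% of the 32851 windows of all genes. It is shown in capitals within 28 bases.
Max, chr12:76962235-76962262, minus strand: gtgagcccggtCACGTGttagggggccg
Mnt, chr11:74830790-74830817, plus strand: cccacccaagcCACGTGtgcgcgcgcgg
Mxd4, chr5:34187913-34187940, minus strand: ggctgggccacCACGTGctgttgctaag
The E-box begins 3 bases before the start of Max, 123 before that of Mnt and 219 before that of Mxd4. None of these 3 genes passed the test described below. The windows of Mxd1 and Mxi1, the 2 members that did pass, do not hold these letters.

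The FOXO sequence GTAAACA, present in 3.65% of all windows, was found in 1 window of the members. It lies 231 bases before the third start of Mxi1 and is shown in capitals.
Mxi1, chr19:53329453-53329481, plus strand: cgcgcggagaaGTAAACAaaccgcgcgcg
The E2F sequences TTTGGCGC or TTTCGCGC, in 0.813% of all windows, occurred among the members in that of Mycn, where 3 matches lie within 30 bases of each other and 2 of them overlap. The cAMP response element TGACGTCA, in 1.79% of all windows, matched no window of the members. These are matches of letters and were not tested as binding sites.

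Library totals ran from 27617750 to 37841233 counts. FK866 replicate 2 stood apart: 22461 gene IDs reached 10 counts in it, and 17152 to 18667 did so elsewhere. The 15 ILC2 markers, led over the 4 libraries by Gata3 and Id2, summed to 6882 and 7068 CPM (counts scaled to a common library size) in controls and to 6114 and 5221 CPM in FK866 libraries. Of them 5 fell (Id2, Icos, Il13, Arg1 and Nmur1) and 1 rose in the test described below, against 7.89% and 5.31% of all genes. The list median was log2 -0.46, with 4 of the 15 above 0. The 1 that rose was Rora, the transcription factor needed for ILC2 development. Rora went from 337.3 and 374.6 CPM to 1185 and 1128 CPM (log2 1.70, adjusted p = 0.000457) and was the highest ILC2 marker in FK866 libraries. The 7 T cell markers summed to 20.1 to 21.2 CPM, the 5 mast cell markers to 0.110 to 1.38 CPM and the 5 ILC1 and NK cell markers to 3.08 to 6.76 CPM in any library. The 6 myeloid markers summed to 4.51 and 5.09 CPM in controls and to 14.1 and 11.6 CPM in FK866 libraries, most of it Cd68, which rose. Of the 4 myeloid markers tested, 1 was called higher and 0 lower, against 5.31% and 7.89% of all genes. Their list median was log2 1.59, with 3 of the 4 above 0. The 5 ILC3 markers summed to 165.4 to 280.1 CPM in controls and to 137.7 to 265.9 CPM in FK866 libraries, led by Il22. Of these 5, 2 rose and 0 fell in the test described below, against 5.31% and 7.89% of all genes. They were Il17f, from 9.06 and 8.65 to 37.6 and 51.8 CPM (log2 2.34, adjusted p = 0.00104), and Il23r (log2 2.05, adjusted p = 0.0172). The list median was log2 1.06, with 4 of the 5 above 0, whereas the summed CPM overlapped between the groups. The 4 B cell markers, mostly Cd79b, gave 31.6 and 34.8 CPM in controls and 19.2 and 25.2 CPM in FK866 libraries. Of the 3 B cell markers tested, 2 had a log2 fold change above 0 and 0 were called, with a list median of log2 1.01. The 6 epithelial markers, nearly all Epcam, gave 42.4 to 55.4 and 27.4 to 40.1 CPM, with Krt8 at 0 counts in all libraries. Among the 4 epithelial markers tested, 2 were above 0 and 0 were called, with a list median of log2 0.32. The 5 stromal and endothelial markers, nearly all Pecam1, gave 144.2 to 182.5 and 190.4 to 227.5 CPM. Their part in the results below was not tested. In a bulk library, fewer cells of a type and less RNA per cell cannot be told apart.

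FK866 libraries held more Mxd1 and Mxi1 mRNA, whereas no activator passed the test. Of the 9 members, 2 were called higher and 0 lower, both of them among the 6 antagonists (quasi-likelihood test of edgeR, with p adjusted by Benjamini-Hochberg over all genes tested and a threshold of 0.05). Over all 19194 genes, 13.2% were called, 5.31% higher and 7.89% lower. The median log2 fold change was -0.51 for the 2 activators and 0.21 for the 6 antagonists, against 0.03 for all genes. Only 3 of the 6 antagonists had a value above 0. With the trend on transcript length and GC content removed, the medians were -0.33 for activators, 0.05 for antagonists and 0.13 for all genes. In 7 members the control and FK866 libraries did not overlap, 3 of them higher and 4 lower in FK866. Among all genes tested, 57.7% showed such a separation, so the count of 7 has little weight by itself.

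**Figure D1:**
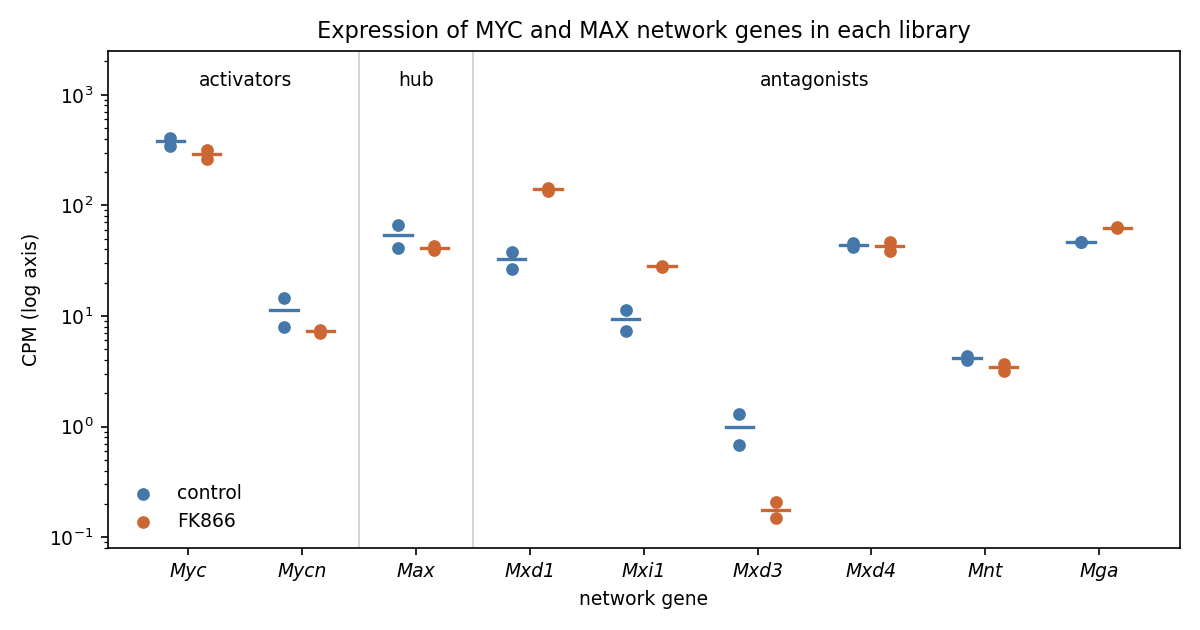
CPM of the 9 network genes in each of the 4 libraries (points) with the mean of each group (bar), on a log axis, in blue for control and orange for FK866. Mxd1 and Mxi1 stand clearly higher in FK866, Myc is the most abundant member in every library, and Mxd3 lies below 2 CPM throughout.

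Myc (ENSMUSG00000022346, mm10 chromosome 15, 61985391 to 61990374, plus strand) is the member that drives growth programmes in activated lymphocytes. It had 409 and 348 CPM in control replicates 1 and 2 and 316 and 261 CPM in FK866 replicates 1 and 2. Both FK866 libraries lay below both controls, but the gap between the nearest libraries was smaller than the distance between libraries of either group. The log2 fold change was -0.39 ± 0.15 (SE) and did not pass (adjusted p = 0.12). This value depended on single libraries: it was called lower when control replicate 2 was left out (-0.50, adjusted p = 0.00735) or FK866 replicate 1 was (-0.63, adjusted p = 0.0277), and -0.24 without FK866 replicate 2 (adjusted p = 0.616). With the trend of fold changes on transcript length and GC content removed it was -0.18 (adjusted p = 0.265).

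Mycn (ENSMUSG00000037169, chromosome 12, 12936093 to 12941914, minus strand) encodes the MYC paralog best known from neural tissue and early lymphoid precursors. Its counts gave 7.87 and 14.7 CPM in controls and 7.01 and 7.50 CPM in FK866 libraries. Control replicate 2 alone stood high, and control replicate 1 was close to the FK866 libraries. The log2 fold change of -0.63 ± 0.32 (SE) did not pass (adjusted p = 0.242), and it ranged from -1.11 without control replicate 1, when it was called lower (adjusted p = 0.00508), to -0.12 without control replicate 2.

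Max (ENSMUSG00000059436, chromosome 12, 76937269 to 76962201, minus strand), the shared partner of the network, stood at 41.1 and 67.1 CPM in controls and at 43.1 and 39.6 CPM in FK866 libraries. The groups overlapped, since control replicate 1 lay between the FK866 libraries. The log2 fold change of -0.39 ± 0.23 (SE) did not pass (adjusted p = 0.306). Control replicate 2 carried the difference: without it the value was 0.01, and without control replicate 1 it was -0.80 and called lower (adjusted p = 0.000302).

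Mxd1 (ENSMUSG00000001156, chromosome 6, 86647042 to 86669161, minus strand), the founding MXD repressor, showed the steepest rise of the network. It had 38.1 and 26.8 CPM in the controls and 134.1 and 144.2 CPM in the FK866 libraries. The lowest FK866 library was well above the highest control, and the FK866 libraries lay close together. The means were 32.5 ± 7.94 and 139.1 ± 7.12 CPM (SD, n = 2 each), a 4.28-fold rise with a log2 fold change of 2.10 ± 0.19 (SE, adjusted p = 0.000973). Under the 12 alternative settings the log2 value stayed between 1.87 and 2.27, and each of the 12 called the gene higher (largest adjusted p = 0.0015).

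Mxi1 (ENSMUSG00000025025, chromosome 19, 53310518 to 53375810, plus strand), which like MXD1 recruits SIN3, rose from a lower level. The counts corresponded to 7.38 and 11.2 CPM in controls and to 27.9 and 28.1 CPM in FK866 libraries, with no overlap. The FK866 libraries were nearly equal, and the controls differed more. The log2 fold change was 1.59 ± 0.24 (SE, adjusted p = 0.00587), a 3.01-fold rise that was also called under each of the 12 alternatives (log2 1.22 to 1.92, largest adjusted p = 0.00691). The table gives 1 value per gene, so the 3 starts of Mxi1 listed by RefSeq were not told apart, and 2.84% of its exon bases are shared with exons of other genes.

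Mxd3 (ENSMUSG00000021485, chromosome 13, 55325168 to 55329823, minus strand) is the MXD member associated with S phase and proliferating cells. It was scarce everywhere, with 47 and 22 counts in the controls and 4 and 7 counts in the FK866 libraries, or 1.29 and 0.675 against 0.148 and 0.206 CPM. Both FK866 libraries lay under both controls, and the log2 fold change was -2.44 ± 0.87 (SE). It did not pass (adjusted p = 0.101), and no alternative called it, with values down to -2.83. The depth limits this gene, and 4.43% of its exon bases are shared with other genes.

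The other MXD member, Mxd4 (ENSMUSG00000037235, chromosome 5, 34173883 to 34187720, minus strand), had 45.4 and 41.9 CPM in controls and 38.6 and 47.1 CPM in FK866 libraries. The FK866 libraries enclosed the controls. The log2 fold change was -0.03 ± 0.17 (SE, adjusted p = 0.947), and its sign turned with the scaling, so no direction is given. Of its exon bases, 6.06% are shared with other genes.

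Mnt (ENSMUSG00000000282, chromosome 11, 74830920 to 74845725, plus strand), the MAX partner that opposes MYC in growing cells, was low, at 4.32 and 4.02 CPM in controls and 3.71 and 3.15 CPM in FK866 libraries. The groups did not overlap but lay close together, and the log2 fold change of -0.28 ± 0.33 (SE) did not pass (adjusted p = 0.646).

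Mga (ENSMUSG00000033943, chromosome 2, 119897228 to 119969581, plus strand) stood at 46.3 and 46.2 CPM in controls and at 61.8 and 63.8 CPM in FK866 libraries. The libraries of each group almost coincided and the groups were apart, yet the log2 fold change of 0.44 ± 0.14 (SE) missed the threshold (adjusted p = 0.0751). It passed with scaling by library totals (0.49, adjusted p = 0.0441), with the stricter filter (0.54, adjusted p = 0.0171) and by DESeq2 (0.47, adjusted p = 0.0358). The longest transcript of Mga has 13931 nt, and once the length and GC trend was removed the value was 0.17 (adjusted p = 0.393).

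**Figure D2:**
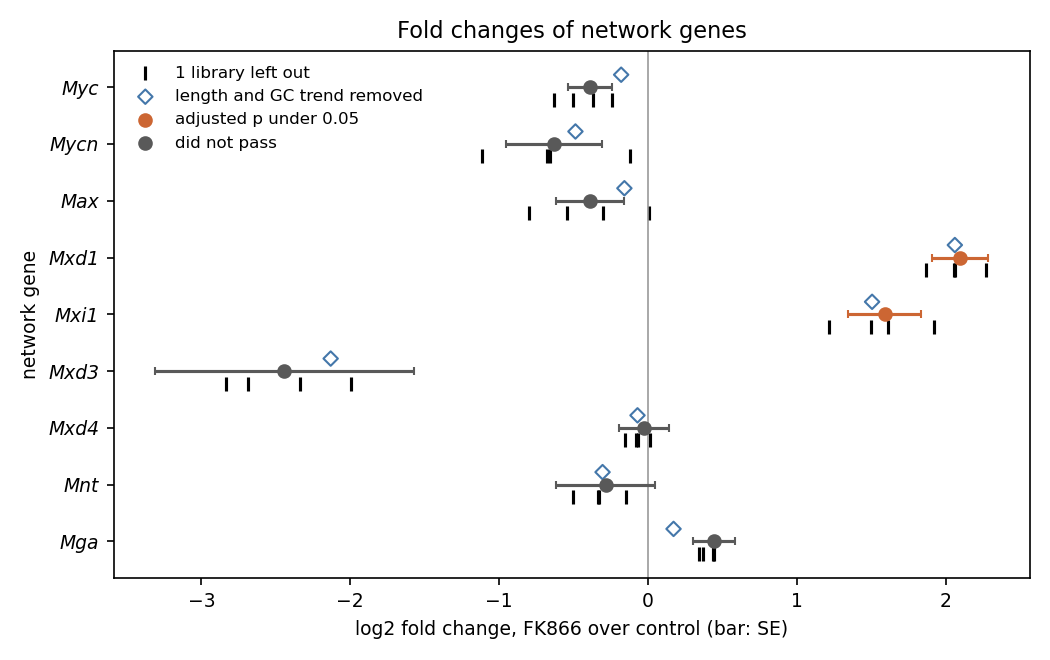
Log2 fold change of FK866 over control for each member with its SE (filled points, orange where the adjusted p was under 0.05), with 1 library left out in turn (ticks) and after removal of the trend on length and GC content (open diamonds). Only Mxd1 (2.10) and Mxi1 (1.59) are orange, and the ticks of Max and Mxd4 reach both sides of 0.

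To set members of different length beside each other, CPM was divided by the kilobases of exon in each gene. On this scale Myc led at 139.3 ± 16.0 CPM per kilobase in controls (SD, n = 2). Max followed at 15.0 ± 5.09, then Mxd4 at 5.15 ± 0.30, Mxd1 at 4.59 ± 1.12, Mycn at 3.42 ± 1.46, Mga at 3.02 ± 0.00446, Mxi1 at 1.36 ± 0.40, Mnt at 0.90 ± 0.0463 and Mxd3 at 0.415 ± 0.185 CPM per kilobase. Among the neighbours in this order, Mxd4 and Mxd1, Mxd1 and Mycn, and Mycn and Mga differed by less than their spread.

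In FK866 libraries Mxd1 reached 19.7 ± 1.01 CPM per kilobase and took the second place behind Myc at 106.3 ± 14.2, ahead of Max at 11.5 ± 0.695. Mxd4 (5.05 ± 0.704), Mxi1 (4.10 ± 0.0168) and Mga (4.10 ± 0.0919) followed, of which Mxi1 and Mga differed by less than their spread. Mycn (2.201 ± 0.105), Mnt (0.741 ± 0.0858) and Mxd3 (0.0748 ± 0.0172) closed the order. The place of Mxd1 and Max was thus exchanged between the groups: per kilobase, Mxd1 was 0.471 and 0.204 of Max in the controls and 1.58 and 1.85 of Max in the FK866 libraries.

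Activators were set against antagonists as sums of CPM per kilobase, as a description with no test. The 6 antagonists together gave 16.3 and 14.5 in controls and 32.5 and 34.98 in FK866 libraries. The activators Myc and Mycn gave 153.0 and 132.4 in controls and 118.5 and 98.5 in FK866 libraries. The antagonist sum was therefore 0.107 and 0.110 of the activator sum in controls and 0.274 and 0.355 of it in FK866 libraries, with means of 0.108 ± 0.00222 and 0.315 ± 0.0572 (SD, n = 2 each). Activator mRNA exceeded antagonist mRNA in all 4 libraries.

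Mxd1 made up most of this difference. Its share of the antagonist sum was 33.0% and 26.1% in controls and 58.3% and 58.3% in FK866 libraries. Mxi1 held 6.62% and 11.3% in controls and 12.6% and 11.8% in FK866 libraries. Its shares did not overlap between the groups, but that of control replicate 2 lay close to those of the FK866 libraries. Mxd4, the largest antagonist beside Mxd1 in controls with 32.8% and 33.9%, held 14.0% and 15.9% in FK866 libraries at about the same level per kilobase. Myc exceeded Mxd1 per kilobase by 28.0-fold and 33.7-fold in controls and by 6.14-fold and 4.72-fold in FK866 libraries. It exceeded Mxi1 by 139.3-fold and 77.8-fold in controls and by 28.4-fold and 23.4-fold in FK866 libraries.

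**Figure D3:**
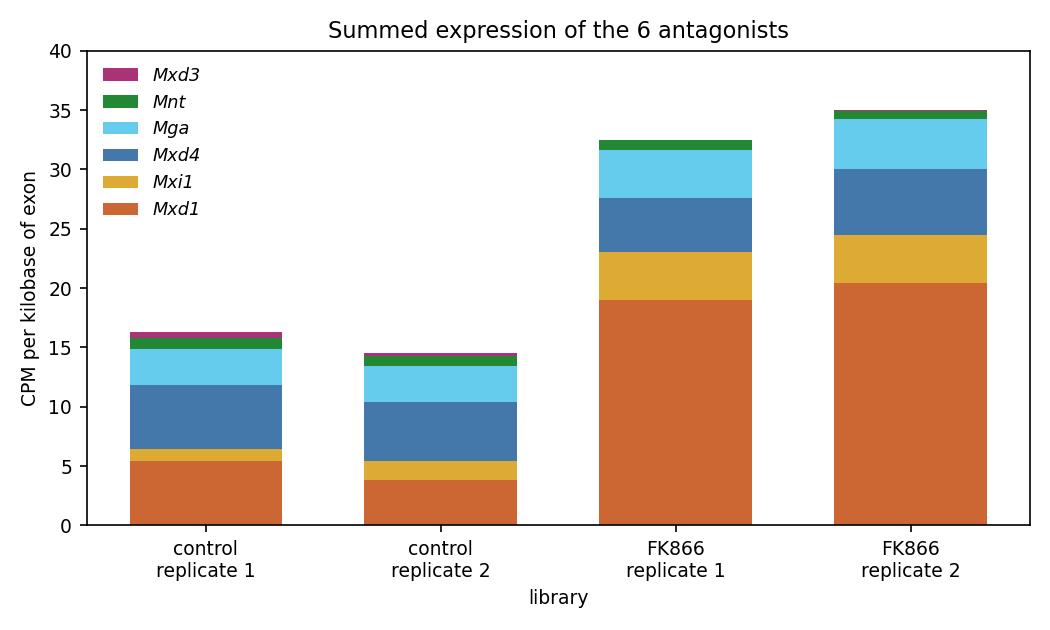
Stacked CPM per kilobase of exon of the 6 antagonists in each library, with the axis starting at 0. The stack is 14.5 to 16.3 in controls and 32.5 to 34.98 in FK866 libraries, and the Mxd1 segment at the bottom goes from under 6 to about 20.

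The parallel MLX arm of the network shares the same fold of dimers, with MLX in the place of MAX and the glucose-sensing partners MondoA (Mlxip) and ChREBP (Mlxipl). Mlx had 89.0 and 80.6 CPM in controls and 70.7 and 61.8 CPM in FK866 libraries (log2 -0.36 ± 0.15, SE, adjusted p = 0.152), with 19.3% of its exon bases shared with other genes. Mlxip stood at 116.5 and 109.8 against 118.2 and 98.0 CPM (log2 -0.07, adjusted p = 0.827). Mlxipl was below 1 CPM in each library. Mycl, the third MYC paralog, had 6 and 0 counts in controls and 0 and 4 counts in FK866 libraries and was not tested. A count of 0 allows up to 3 counts, or 0.092 CPM in control replicate 2 and 0.111 CPM in FK866 replicate 1. None of these 4 genes was called.

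The genes that MYC is known to activate were called lower in FK866 in a larger share than all genes. Of 38 listed targets, all tested, 19 were called lower and 1 higher, against 7.89% and 5.31% of all genes, and the list median was -0.48. The list is made of well expressed genes. Among the 9697 genes whose mean log2 CPM reached 2, where 16.6% were called lower, 22 of 37 targets were called lower. By adjusted p the leading ones were cyclin-dependent kinase 4 (Cdk4, 683.2 ± 13.0 to 400.0 ± 0.591 CPM, adjusted p = 0.00561), the ribosome assembly factor Bop1 (333.2 ± 38.9 to 182.9 ± 11.6 CPM, adjusted p = 0.0067) and the purine synthesis enzyme Gart (251.5 ± 31.4 to 133.7 ± 16.6 CPM, adjusted p = 0.00762). Each of these fell by between 0.77 and 0.91 on the log2 scale, and 19.7% of the exon bases of Cdk4 and of Gart are shared with other genes. The exception was Odc1, the ornithine decarboxylase of polyamine synthesis, which rose from 527.9 ± 25.7 to 1022 ± 79.9 CPM (log2 0.95 ± 0.12, SE, adjusted p = 0.00312). Without FK866 replicate 2 only 7 of the 38 targets were called lower. In the other 11 alternatives the count lay between 12 and 30. Removing the length and GC trend left 17, at a list median of -0.36.

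Genes that MYC is known to repress were called higher more often than the background, without a common direction. Of 15 listed, 14 were tested, 4 rose and 0 fell, against 5.31% and 7.89% of all genes. The list median was 0.25, with 7 of the 14 above 0, and it was -0.24 over 15 genes with no filter. With the stricter filter 5 of 8 rose and 1 fell, where 18.0% of all genes rose and 16.6% fell. By DESeq2 6 rose and 1 fell. The cell-cycle brake cyclin G2 (Ccng2) rose from 11.8 ± 3.06 to 32.6 ± 1.45 CPM (log2 1.47, adjusted p = 0.00595), and the stress gene Gadd45b from 101.4 ± 19.0 to 230.8 ± 59.7 CPM (log2 1.19, adjusted p = 0.00834). The CDK inhibitor gene Cdkn2b went from 0.988 ± 0.704 to 5.42 ± 3.46 CPM (log2 2.44, adjusted p = 0.0369), a call lost without FK866 replicate 1 (1.48). Antiproliferative Btg1 rose by 0.66 (adjusted p = 0.0467) and was at 0.30 and not called without control replicate 1.

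The corepressor through which MXD1 and MXI1 act split in both directions. Of 18 SIN3 and HDAC genes, 3 rose and 3 fell, against 5.31% and 7.89% of all genes, with a median of 0.15. Histone deacetylase 1 (Hdac1) fell by 0.74 on the log2 scale, from 306.2 ± 32.1 to 182.8 ± 1.84 CPM (adjusted p = 0.00944), the histone-binding subunit Rbbp7 from 674.0 ± 67.5 to 374.5 ± 17.4 CPM (log2 -0.85, adjusted p = 0.00574). Brms1l, a further SIN3 subunit, fell by 1.07 (adjusted p = 0.015, not called without FK866 replicate 2). The nuclear receptor corepressor Ncor1 rose by 0.59 (adjusted p = 0.0206), and was at 0.32 and not called with the length and GC trend removed. It was also not called without control replicate 1 (0.40) or FK866 replicate 1 (0.47). Without control replicate 1 or without FK866 replicate 1, 0 genes of the list were called higher.

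Of 10 partners of MGA in PRC1.6, 2 fell and 1 rose, against 7.89% and 5.31% of all genes, with a median of -0.19. The E2F dimer partner Tfdp1 fell by 1.14 on the log2 scale, from 245.3 ± 14.5 to 111.6 ± 19.4 CPM (adjusted p = 0.00387), and E2f6, the repressive E2F of this complex, from 77.2 ± 0.512 to 43.5 ± 1.72 CPM (log2 -0.83, adjusted p = 0.00826). Wdr5, which also binds MYC, rose by 0.47 (adjusted p = 0.0442) and was not called with any 1 library left out.

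Of 18 MYC cofactors, 5 rose and 1 fell, against 5.31% and 7.89% of all genes, with a median of 0.28. The 5 include Wdr5, which is also the 1 gene that rose among the PRC1.6 partners, so the 2 lists are not independent. Zbtb17, which encodes MIZ-1, the factor through which MYC represses CDK inhibitor genes, rose from 44.0 ± 5.90 to 96.5 ± 17.1 CPM (log2 1.13 ± 0.18, SE, adjusted p = 0.00624). The chromatin remodeller Ep400 (0.62, adjusted p = 0.0206) and the elongation factor subunit Ccnt1 (0.64, adjusted p = 0.0262) rose. Hcfc1, a MYC-binding coactivator, fell by 0.53 (adjusted p = 0.0365). Without FK866 replicate 1 the calls for Ep400 and Ccnt1 were lost and 1 cofactor rose, with Ep400 at 0.47 and Ccnt1 at 0.41. Without FK866 replicate 2 the call for Hcfc1 was lost (-0.42) and 3 cofactors rose.

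Of 17 genes that set the life time of MYC protein, 2 rose and 1 fell, a total of 17.6% against 13.2% of all genes, with a median of 0.10. The balance turned with single libraries: 1 rose and 3 fell without FK866 replicate 1 (median -0.15), and 1 rose and 2 fell without control replicate 2 (median -0.02). Usp28, a deubiquitinase that protects MYC, rose from 9.64 ± 0.902 to 21.0 ± 0.390 CPM (log2 1.12 ± 0.21, SE, adjusted p = 0.0111). Usp22, another deubiquitinase, rose by 0.52, just inside the threshold (adjusted p = 0.04997). The ubiquitin ligase gene Fbxw7, which targets MYC for degradation and was added here after its value was seen, had a log2 fold change of -0.06 (adjusted p = 0.89). The Usp22 call was lost without control replicate 2 or either FK866 library, with RLE scaling (adjusted p = 0.0513) and with no filter (adjusted p = 0.26).

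**Figure D4:**
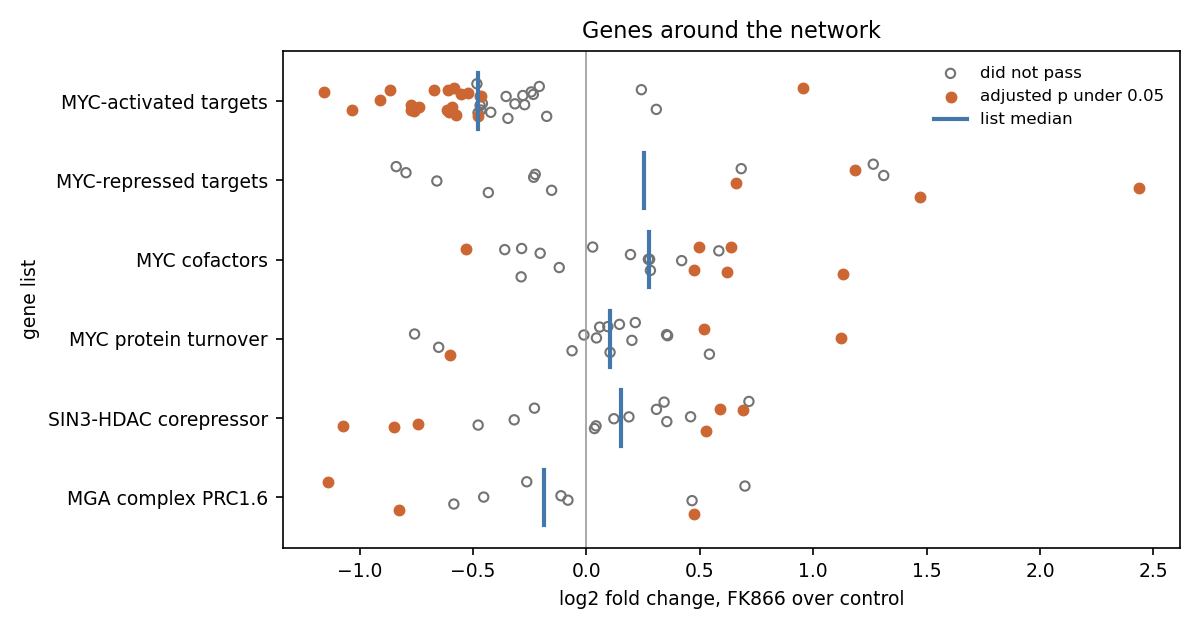
Log2 fold change of FK866 over control for each tested gene of 6 lists around the network (points, filled where the adjusted p was under 0.05; vertical spread only separates points), with the median of each list as a blue bar. The MYC-activated targets lie mostly left of 0 with a median of -0.48, and the other lists extend to both sides.

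Among the 8429 protein-coding genes whose mean log2 CPM reached 3, those closest to Myc and to Mxd1 in profile were looked up. Likeness was the root mean square difference of log2 CPM over the 4 libraries, each gene centred on its own mean, which is a description of 4 values per gene. Closest to Myc were Vcp (0.0136), Gata3 (0.0157), Wdyhv1 (0.0164) and Cops6 (0.0201), none of which passed the test. Closest to Mxd1 were Cystm1 (0.101), Kit (0.116), Ifrd1 (0.126) and Crem (0.143), with log2 fold changes of 2.12, 2.12, 2.05 and 1.85.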

How the data were processed

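The submitters' processing notes name cutadapt 1.9, HISAT2 2.2.1 and the mouse build mm10. The authors deposited raw read counts per Ensembl gene ID, and the unit was read from the whole-number values. The sources used here give no counting program, annotation or strand setting. Because the SMART-Seq and Nextera chemistry named in the labels marks no strand, reads of overlapping genes cannot be told apart. Symbols, positions and exon lengths came from GENCODE M21 (GRCm38), which named 55227 of 55487 IDs.

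Counts were tested with edgeR 4.0.16 in R 4.3.3 (quasi-likelihood F test, two-sided, treatment only, TMM scaling, filterByExpr at 10 counts per library and 15 in total). Genes with a Benjamini-Hochberg adjusted p under 0.05 over all 19194 tested genes were called. The SE was obtained from the log2 fold change and the F statistic (size over root F). CPM uses TMM-scaled library sizes, and log2 CPM a prior count of 2. Libraries of a group differed by more than sampling noise (chi-square per degree of freedom 35.8 in controls and 19.0 in FK866). The test was checked on counts of 19194 genes simulated for the comparison of FK866 with control. It recovered 76 of 100 genes altered 2-fold and 98 of 100 altered 4-fold, while 7 of its 181 calls were false. The altered genes were drawn from those with mean log2 CPM above 2, so recovery of scarcer genes was not measured. The simulated spread of each gene followed the trend with expression, and a smaller share of genes was altered than was called in the data. Alternatives included DESeq2 1.42.0 and a length and GC trend fitted with mgcv 1.9.3.

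The members and lists were chosen with earlier results of these data known. Named were all members, the MLX arm with Mycl, up to 4 called genes with the smallest adjusted p per list (the 2 most abundant had none been called), the 2 most abundant genes of a marker list, and the 4 nearest profiles of Myc and of the called member with the smallest adjusted p. Some genes of these lists are not reported here. Promoter windows came from RefSeq (GRCm38.p6).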

Additional observations from a re-analysis of the deposited data

How the results depend on the processing

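Mxd1 and Mxi1 were called higher in all 12 alternatives. Leaving out 1 library gave ranges of -0.63 to -0.24 for Myc, -1.11 to -0.12 for Mycn, -0.80 to 0.0050 for Max and -0.15 to 0.013 for Mxd4, where a lone library of a group is assumed to vary like those of the other group. The number of members called was then 2 to 4, of MYC cofactors 2 to 7, of MYC-activated targets 8 to 27 and of SIN3 and HDAC genes 3 to 6. Mxd4 turned to 0.033 with library totals, 0.015 with upper quartile, 0.0016 with RLE scaling, 0.074 with the stricter filter and 0.0017 by DESeq2. Mga was called with library totals (0.49), the stricter filter (0.54) and DESeq2 (0.47). Mlxip was 0.023 with the stricter filter, and ran from -0.30 to 0.085 with 1 library left out, as Mlxipl did from -3.17 to 0.72. Mxd3, Mnt, Cdkn2b and Mlxipl have no value under the stricter filter.

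With the replicate block, 5256 genes were called in place of 2534, and 4 members in place of 2, with Myc at -0.39 and Mga at 0.44 now called. Counts were 1 in the MLX arm, 10 for cofactors, 6 for MYC turnover, 33 for activated and 7 for repressed targets and 6 for PRC1.6. The same-numbered libraries share only a number: replicate differences correlated across genes with r = 0.234, from 1 comparison. With no filter the counts were 1 cofactor, 13 activated targets and 3 SIN3 and HDAC genes. MYC turnover had 1 call with RLE scaling and 5 with the stricter filter or after removal of the length and GC trend, and repressed targets had 7 by DESeq2. Removing that trend moved the median of all genes from 0.03 to 0.13 and the calls from 1020 higher and 1514 lower to 1573 and 1377. The antagonist to activator ratio was 0.139 in controls and 0.401 in FK866 with the longest transcript as length, and 0.0870 in controls without Mga. Of the 22 called pathway genes that the naming rule selects, 10 lost their call in at least 1 alternative. The cause of these shifts was not tested.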
